A study of Mus musculus with 9 samples.

Results

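Expression of 10 small proline-rich genes, Sprr1a, Sprr1b, Sprr2b, Sprr2d, Sprr2e, Sprr2f, Sprr2g, Sprr2h, Sprr2i and Sprr3, was followed in the E18.5 mouse epidermis of 4 Esrp genotypes. They were found by gene symbol in a table of 38203 genes, each symbol occurred once, and all 10 passed the filter on low values, an average above 0.1 FPKM in at least 1 genotype, which Sprr2i passed through DKO alone. Epidermis was taken from the trunk skin of individual embryos after trypsin separation from the dermis, and 9 libraries were sequenced. WT (Esrp1 WT/Esrp2 WT) had 2 libraries, KO (Esrp1 KO/Esrp2 WT) had 3, KH (Esrp1 KO/Esrp2 Het) had 2 and DKO (Esrp1 KO/Esrp2 KO) had 2. All embryos were of a mixed C57BL6/129Sv background crossed back into C57BL6. Both knockouts were germline, so Esrp1 and Esrp2, which encode epithelial splicing regulators, were lost from every tissue that uses them and not from the skin alone. The Esrp1 line came from a targeted embryonic stem cell clone, and in the Esrp2 allele a LacZ and neomycin cassette replaced the gene. The Esrp1 deletion removes internal exons only, so that RNA of the deleted allele still counts toward the level of Esrp1. The note on RNA extraction writes the control embryos as Esrp1+/+ and Esrp2-/-, whereas titles and genotype fields give them as WT for both genes.

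Levels are given in FPKM, fragments scaled to the length of a gene's exons and to the size of the library, and can be compared between genes. Esrp1 stood at 119 and 142 FPKM in the WT libraries and between 18.2 and 55.1 FPKM in the 7 libraries of the other genotypes. Esrp2 stood at 118 and 136 FPKM in WT, at 88.1 to 131 FPKM in KO, at 38.6 and 89.5 FPKM in KH, and at 0.0843 and 0.0463 FPKM in DKO. The control libraries thus held Esrp2 RNA, as their titles say and the extraction note does not. The epidermal markers Krt5, Krt14, Krt1, Krt10, Lor, Flg and Ivl were high in each library, and the lowest of these values was 474 FPKM, of Ivl in KO replicate 1. The file gives no read counts, but FPKM of rarely read genes fell on whole multiples of the value of 1 fragment, and from this the depth of the libraries ranged from that of DKO replicate 1 to 3.97 times as deep in KO replicate 3.

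Small proline-rich proteins are precursors of the cornified envelope, the protein shell that forms beneath the membrane of a keratinocyte as it becomes a dead surface cell. Transglutaminases join them to loricrin and other envelope proteins, between which they act as bridges. Their genes lie side by side in the epidermal differentiation complex, and several of them are known to be induced in stressed, wounded or inflamed epidermis and in other stratified linings.

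All 10 genes lay on chromosome 3 of mm10 within 169 kb, from chr3:92316705 to chr3:92485895, in the order Sprr2b, Sprr2d, Sprr2e, Sprr2f, Sprr2g, Sprr2h, Sprr2i, Sprr1b, Sprr3 and Sprr1a. The Sprr2 members are read from the plus strand, and Sprr1b, Sprr3 and Sprr1a from the minus strand. The other 6 Sprr genes of the table, Sprr2a1, Sprr2a2, Sprr2a3, Sprr2j-ps, Sprr2k and Sprr4, lie among and around them. GENCODE M21 classes 9 of the 10 as protein coding and Sprr2g as a polymorphic pseudogene. Each has a model of 2 exons, to which Sprr2g and Sprr2h add a transcript of 3 exons.

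RefSeq promoter windows (GRCm38.p6, 250 bases before and 50 after the gene start) were at hand for 9 of the 10 genes, all but Sprr2g. The 250 bases upstream are given for Sprr2d, the member with the highest mean in WT and DKO. They are also given for Sprr2f, which had no fragment in KH, and for Sprr2k, a gene that is no member and stands between Sprr2i and Sprr1b. Sprr1a is shown as a gene of the other subfamily, and Sprr3 as a member that was not called in any comparison. Capitals mark the AP-1 motif TGAGTCA and the octamer ATTTGCAT, each searched on both strands, which do not overlap.
Sprr2d, chr3:92338890-92339139, plus strand: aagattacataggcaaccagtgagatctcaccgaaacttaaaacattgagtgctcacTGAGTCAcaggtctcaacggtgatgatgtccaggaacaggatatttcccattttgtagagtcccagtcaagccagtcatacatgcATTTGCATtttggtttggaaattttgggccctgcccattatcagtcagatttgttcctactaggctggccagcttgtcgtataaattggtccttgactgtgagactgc
Sprr2f, chr3:92364937-92365186, plus strand: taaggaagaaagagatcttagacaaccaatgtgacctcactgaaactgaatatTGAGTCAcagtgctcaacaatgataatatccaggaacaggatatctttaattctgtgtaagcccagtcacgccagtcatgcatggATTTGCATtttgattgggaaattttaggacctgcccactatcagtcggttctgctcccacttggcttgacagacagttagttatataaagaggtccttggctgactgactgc
Sprr2k, chr3:92432332-92432581, plus strand: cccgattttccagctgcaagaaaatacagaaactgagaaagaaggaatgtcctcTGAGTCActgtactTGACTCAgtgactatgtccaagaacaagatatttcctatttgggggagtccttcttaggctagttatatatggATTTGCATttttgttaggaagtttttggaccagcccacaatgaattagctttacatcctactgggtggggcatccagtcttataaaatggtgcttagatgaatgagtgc
Sprr1a, chr3:92485882-92486131, minus strand: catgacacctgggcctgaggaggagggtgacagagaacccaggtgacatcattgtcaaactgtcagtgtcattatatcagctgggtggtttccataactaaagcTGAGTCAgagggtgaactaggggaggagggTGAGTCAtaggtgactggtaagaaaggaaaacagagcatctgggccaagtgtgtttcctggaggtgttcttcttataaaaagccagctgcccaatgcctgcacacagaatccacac
Sprr3, chr3:92458721-92458970, minus strand: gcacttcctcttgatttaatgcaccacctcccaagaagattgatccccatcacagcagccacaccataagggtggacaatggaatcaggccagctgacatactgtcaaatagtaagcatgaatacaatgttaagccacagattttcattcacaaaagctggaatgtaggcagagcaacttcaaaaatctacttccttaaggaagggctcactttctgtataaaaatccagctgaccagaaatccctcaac
The AP-1 motif is bound by Fos and Jun dimers, and the octamer by POU proteins such as Pou2f3. An exact AP-1 match lay in 7 of the 9 windows and an octamer in 6, and the 6 with both were Sprr2b, Sprr2d, Sprr2e, Sprr2f, Sprr2h and Sprr2i. In these 6 the AP-1 match began 193 to 198 bases and the octamer 108 to 112 bases before the gene start. Sprr1a held the AP-1 match at 2 places and no octamer, and Sprr1b and Sprr3 held neither. Among all 32851 promoter windows of this length, 5.20% held the AP-1 letters, 1.74% the octamer and 0.134% both. All 9 member windows held the TATA letters TATAAA, also searched on both strands, which 13.6% of all windows held. Sprr2k held both as well, and it was not called in any comparison with DKO. A match is a description of the letters in the window and not evidence of a bound site.

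**Figure D1:**
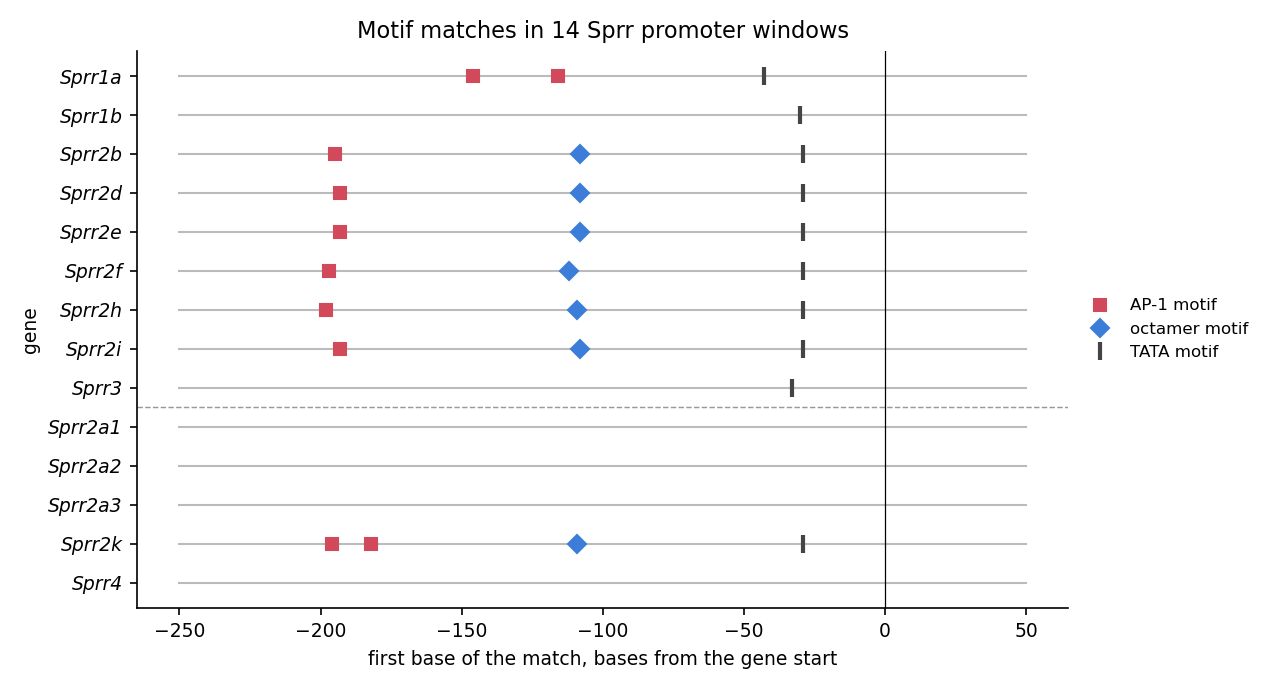
Positions of AP-1, octamer and TATA motif matches on either strand in the promoter windows of 14 Sprr genes, plotted as the distance in bases of the first letter from the gene start. Members stand above the dashed line and other Sprr genes below it. Of the 9 member windows 6 hold an AP-1 match and an octamer, as does Sprr2k, and all 9 hold a TATA match.

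The paralogs are alike, so part of their reads could be shared between them. Of the windows of 100 bases, the length of a read, along each GENCODE transcript, none of those of Sprr1a, Sprr1b, Sprr2d, Sprr2f, Sprr2g, Sprr2h and Sprr3 occurred in another Sprr transcript. Sprr2b shared 0.438% of its windows with Sprr2a1, and Sprr2e and Sprr2i shared 1.09% and 1.16% with each other. With windows of 50 bases the shares rose to 13.7% in Sprr2b, 10.2% in Sprr2e and 12.5% in Sprr2i, Sprr2d shared 4.27% and Sprr2f 0.714%, and the other 5 members shared none. Sprr2a1 and Sprr2a2, by contrast, shared 92.5% and 92.8% of their windows of 100 bases with other Sprr transcripts, and the table gives both the same locus. The study designed primers against 3 members, and they show where these genes can be told apart by letters.
Sprr2b forward: ggtactcaagcattggtctgc
Sprr2b reverse: cactttggaggaggacaagg
Sprr2e forward: caggtcctaggctactttggag
Sprr2e reverse: actgtggatgaggacaaggc
Sprr2g forward: ctcaggtcctacactacgttgg
Sprr2g reverse: actttggcagaggacaggg
Both primers of a pair occurred together in 1 Sprr transcript only, that of the named gene, with products of 148 bases for Sprr2b, 141 for Sprr2e and 144 for Sprr2g. Alone, the Sprr2b forward primer also matched Sprr2a1, Sprr2a2 and Sprr2a3, and its reverse primer matched 6 transcripts of the family.

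The summed level of the 10 genes was higher in DKO than in the other genotypes. It came to 194 and 321 FPKM for WT, 145, 442 and 284 for KO, 201 and 287 for KH, and 1910 and 2598 for DKO. Both DKO libraries lay far above the other 7, and the means were 258 ± 89.4 (SD, n = 2) in WT, 290 ± 149 (n = 3) in KO, 244 ± 61.0 (n = 2) in KH and 2254 ± 486 (n = 2) in DKO, 8.75 times WT. In whole tissue, more cells that express a gene and more RNA in each of them cannot be told apart. Both DKO libraries were above all 7 others for 9 of the 10 genes, the exception being Sprr3, against 5.33% of the 16897 genes tested. The DKO libraries were above both WT libraries for 10 of 10 members (27.8% of all genes), above the 3 KO libraries for 9 (11.2%) and above both KH libraries for 10 (14.3%).

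Each gene was tested with limma on log2(FPKM + 1) and called where the Benjamini-Hochberg adjusted p fell under 0.05 and the genotype averages differed by more than 2-fold in FPKM. Between DKO and WT, 7 of the 10 members were called higher, against 0.479% of all genes, and their median difference was 3.20 on the log2 scale against 0.02 over all genes. Between DKO and KO 6 members were called higher (0.521% of all genes), and between DKO and KH 6 (0.385%). Sprr2i, which passed the filter only through DKO, is in each of these counts, and without it 6, 5 and 5 of 9 members were called, with medians of 3.26, 3.77 and 3.44. The 3 comparisons share the DKO libraries. The median difference of the members was 3.61 against KO and 3.33 against KH, and the latter was the same with Sprr2f, which had no fragment in KH, set at its bound. Loss of Esrp1 with 1 or both copies of Esrp2 left was not accompanied by a call in any member. KO against WT called 0 members (0.0296% of all genes called in either direction), KH against WT 0 (0.0296%) and KH against KO 0 (0%). In limma no member reached an unadjusted p of 0.05 in these 3 comparisons. Of all 16897 genes, 765, 629 and 185 did, so few members would be under 0.05 at these shares. The other settings and leave-one-out fits of limma also called 0 members there. By the study's methods the KO, KH and DKO embryos came from separate crosses. That of DKO was between parents without Esrp2, and that of KH between a parent with both copies and a parent with none. DKO and KH embryos thus shared no litter with another genotype, and for both of them cross and genotype cannot be told apart. Labels do not say which WT and KO embryos shared a litter, and p-values measure the spread between these libraries.

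**Figure D2:**
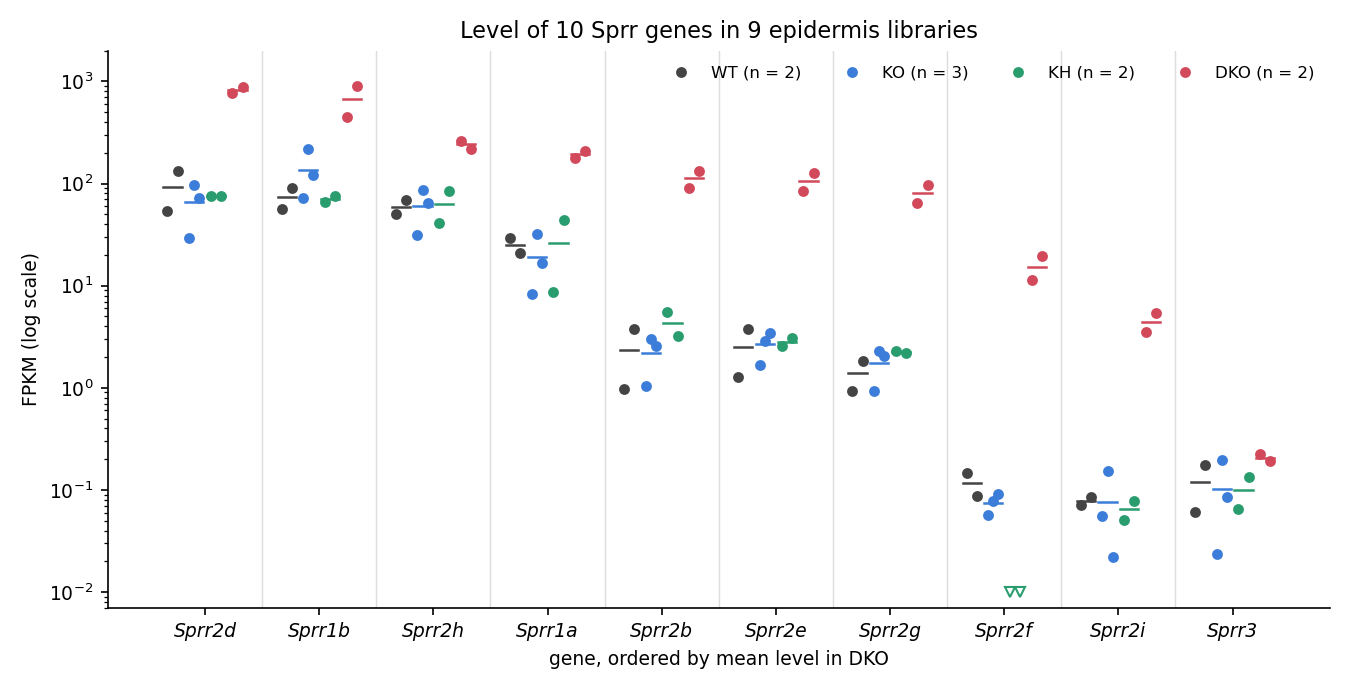
FPKM on a log scale of the 10 Sprr genes, ordered by their mean in DKO, with 1 point per library and a bar at the mean of each genotype (WT 2, KO 3, KH 2, DKO 2 libraries). Open triangles mark the 2 KH libraries listed at 0 for Sprr2f. The DKO points lie above all others for each gene but Sprr3, whose levels stay between 0.0235 and 0.223 FPKM.

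Sprr1a and Sprr1b encode the cornifins, envelope precursors that keratinocytes make late in differentiation. Sprr1b (chr3:92436809-92438779) stood at 56.5 and 90.0 FPKM in WT, 71.6, 218 and 122 FPKM in KO, 66.1 and 75.0 FPKM in KH, and 444 and 912 FPKM in DKO. The DKO libraries differed from each other by more than any WT or KH pair, and the lower of them was still 2.04 times the highest other library, KO replicate 2. Its difference between DKO and WT was 3.14 ± 0.52 (SE) on the log2 scale, with an adjusted p of 0.0370 in limma with Benjamini-Hochberg adjustment. Against KO (2.35 ± 0.47) and KH (3.16 ± 0.52) it was not called, at adjusted p = 0.0998 and 0.0505 in limma with the same adjustment. The call against WT was lost when either WT, KH or DKO library or KO replicate 3 was left out, with limma's adjusted p between 0.0614 and 0.267. Against KH it was gained without KO replicate 1 or 2, at adjusted p = 0.0273 and 0.0313 in limma.

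Sprr1a (chr3:92483952-92485895), also known as a gene that injured neurons switch on, stood at 29.7 and 20.7 FPKM in WT. It stood at 8.38, 32.3 and 16.5 FPKM in KO, at 8.59 and 43.5 FPKM in KH, and at 178 and 209 FPKM in DKO. The lowest DKO library was 4.08 times the highest of the others, KH replicate 2, and the libraries of the other genotypes overlapped widely. The difference from WT was 2.91 on the log2 scale with a 95% interval of 1.26 to 4.56, and it was not called, at a limma adjusted p of 0.141 (Benjamini-Hochberg). Against KO (3.46) and KH (3.23) the limma adjusted p-values were 0.0781 and 0.205. Leaving out KH replicate 1 or 2 gave a call against KO, at adjusted p = 0.0416 and 0.0289 in limma. The difference from KH was 2.12 without KH replicate 1 and 4.34 without KH replicate 2, with no call in either fit.

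Sprr2d and Sprr2h were the Sprr2 members already high in WT. Sprr2d (chr3:92339140-92340873) stood at 54.0 and 132 FPKM in WT, 29.4, 96.9 and 72.9 FPKM in KO, 74.9 and 75.1 FPKM in KH, and 771 and 875 FPKM in DKO. The DKO libraries agreed closely and were at least 5.83 times any other, while WT spread as widely as KO. The difference from WT was 3.26 ± 0.55 (SE) on the log2 scale, and those from KO and KH were 3.77 ± 0.51 and 3.44 ± 0.55. All 3 were called, at adjusted p = 0.0414, 0.0140 and 0.0463 in limma with Benjamini-Hochberg adjustment. The call against WT was lost without either WT, KH or DKO library or KO replicate 3, at a limma adjusted p between 0.0614 and 0.268. That against KO was lost without KO replicate 3, DKO replicate 1 or DKO replicate 2, at adjusted p = 0.0525, 0.146 and 0.143 in limma. That against KH held only when KO replicate 1 was the library left out, and the limma adjusted p was otherwise 0.0539 to 0.289.

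Sprr2h (chr3:92385685-92387324) stood at 50.7 and 68.3 FPKM in WT, 31.4, 86.5 and 64.9 FPKM in KO, 40.7 and 84.6 FPKM in KH, and 263 and 219.9 FPKM in DKO. Both DKO libraries were above all others, the lower by a factor of 2.54, the smallest gap after that of Sprr1b among the 9 genes that were separated. The difference from WT was 2.01 on the log2 scale with a 95% interval of 0.92 to 3.11. It was not called in limma with Benjamini-Hochberg adjustment against WT, KO or KH, at adjusted p = 0.133, 0.123 and 0.252.

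Sprr2b and Sprr2e, which encode envelope precursors, and Sprr2g of the same subfamily were low outside DKO and stood at 64.6 to 134 FPKM within it. Sprr2b (chr3:92316705-92318085) stood at 0.970 and 3.75 FPKM in WT, 1.03, 2.98 and 2.57 FPKM in KO, 5.47 and 3.18 FPKM in KH, and 90.4 and 134 FPKM in DKO. Sprr2e (chr3:92352143-92353449) stood at 1.28 and 3.77 FPKM in WT, 1.67, 2.87 and 3.48 FPKM in KO, 2.58 and 3.09 FPKM in KH, and 84.1 and 126 FPKM in DKO. Sprr2g (chr3:92373915-92375229) stood at 0.933 and 1.85 FPKM in WT, 0.930, 2.28 and 2.04 FPKM in KO, 2.27 and 2.19 FPKM in KH, and 64.6 and 96.1 FPKM in DKO. In all 3 genes the DKO libraries were 16.5 to 28.4 times the highest other library at the least, and DKO replicate 2 was the higher. Average FPKM was 47.6 times WT for Sprr2b, 41.6 times for Sprr2e and 57.7 times for Sprr2g. The differences from WT were 5.18 ± 0.48, 4.98 ± 0.40 and 5.09 ± 0.33 (SE) on the log2 scale, and limma with Benjamini-Hochberg adjustment gave adjusted p = 0.00175, 6.6e-04 and 1.84e-04. These were the sixth, eighth and seventh largest increases of the 16897 genes. Against KO the differences were 5.18, 4.86 and 4.90 and against KH 4.42, 4.76 and 4.63, and all were called. The call of Sprr2b against KH was lost without KH replicate 2 or DKO replicate 2, at adjusted p = 0.0522 and 0.0693 in limma.

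Sprr2f and Sprr2i were barely read outside DKO. Sprr2f (chr3:92365187-92366442), known for its response to estrogen in the uterus, stood at 0.146 and 0.0866 FPKM in WT, 0.0567, 0.0779 and 0.0906 FPKM in KO, 0 in both KH libraries, and 11.3 and 19.6 FPKM in DKO. Counted in fragments, WT held 2 per library, KO held 1, 1 and 4, KH held 0 in each, and DKO held about 125 and 381. The lower DKO value was 77.2 times the highest of the others. Per unit of depth, the DKO libraries held 153 times the fragments of WT, with an exact 95% interval of 59.5 to 565 that covers counting error only. Against KH, which had no fragment, the level was at least 77.3-fold higher, taking 3 fragments per library as the floor. On the log2 scale, which understates the change of such low genes, the difference from WT was 3.83 ± 0.22 (SE), called at adjusted p = 8.5e-05 in limma with Benjamini-Hochberg adjustment.

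Sprr2i (chr3:92407991-92409271) stood at 0.0717 and 0.0850 FPKM in WT, 0.0556, 0.153 and 0.0222 FPKM in KO, 0.0510 and 0.0785 FPKM in KH, and 3.48 and 5.34 FPKM in DKO. No library outside DKO held more than 2 of its fragments, and the DKO libraries held about 39 and 106. The ratio of DKO to WT per unit of depth was 58.6, with an exact 95% counting interval of 19.7 to 287 on 3 fragments in WT. In limma the difference was 2.31 ± 0.16 (SE) on the log2 scale at a Benjamini-Hochberg adjusted p of 2.84e-04. Sprr2i shares stretches of sequence with Sprr2e, as given above, whose level in DKO was far higher, and what part of its reads came from Sprr2e was not tested. Sprr2e, Sprr2f, Sprr2g and Sprr2i were called against WT in all 9 leave-one-out fits.

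Sprr3 (chr3:92456502-92458720), the family member known from the esophagus and other internal linings, stood at 0.0610 and 0.177 FPKM in WT, 0.0235, 0.196 and 0.0845 FPKM in KO, 0.0648 and 0.133 FPKM in KH, and 0.223 and 0.191 FPKM in DKO. The DKO libraries overlapped KO replicate 2, and no library held more than 10 fragments of the gene. The difference from WT was 0.11 on the log2 scale with a 95% interval of -0.12 to 0.34, at an adjusted p of 0.632 in limma (Benjamini-Hochberg), and it was 0.04 and 0.19 without the first and the second WT library. In fragments per unit of depth DKO held 1.52 times WT, with an exact 95% counting interval of 0.662 to 3.55. Against KO the ratio was 2.28 with an interval of 1.05 to 4.92, which leaves out 1, and against KH it was 2.21 with an interval of 0.848 to 6.41. These intervals cover counting error only and not the spread between libraries.

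**Figure D3:**
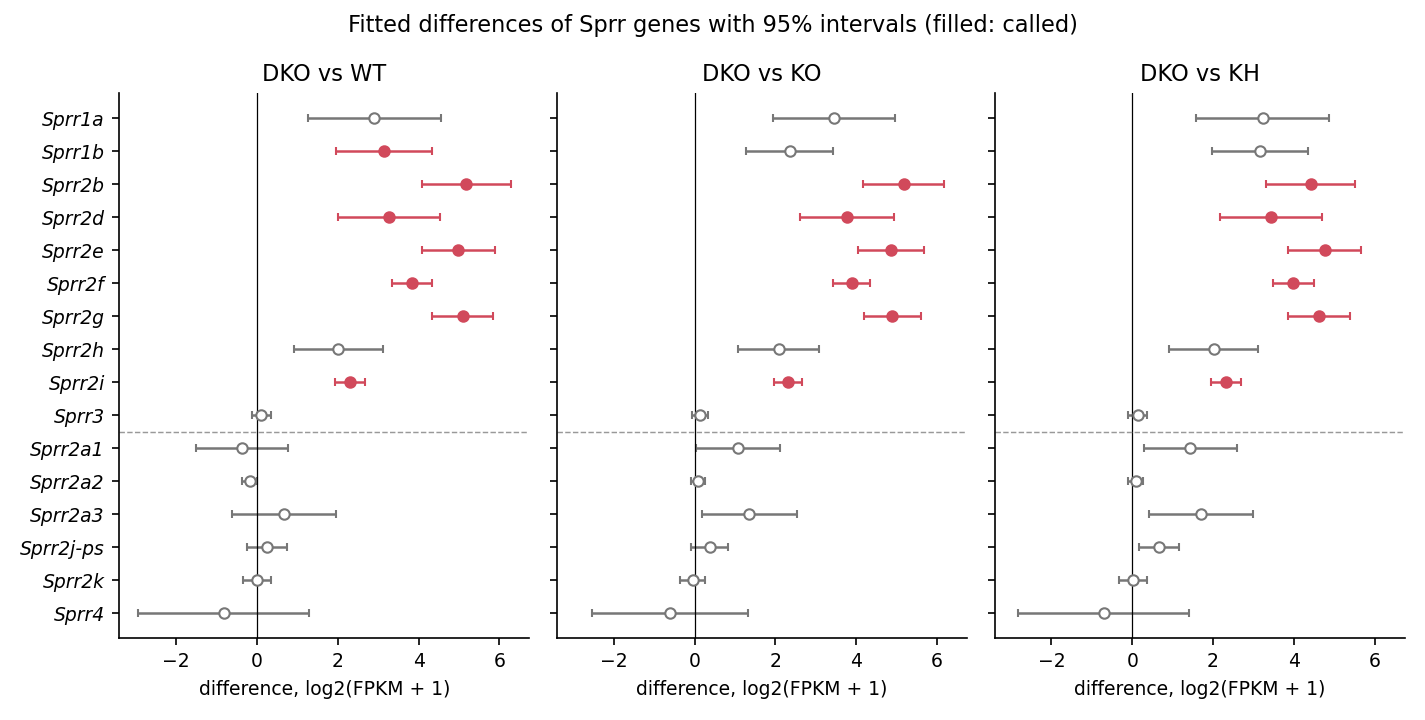
Fitted differences of DKO from WT, KO and KH on the log2(FPKM + 1) scale for 16 Sprr genes, with 95% intervals from limma. Filled points are called, open points are not, and the dashed line parts the 10 members from the other 6 genes. The differences of 9 members lie between 2.01 and 5.18 in the WT panel and that of Sprr3 is 0.11.

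The 6 Sprr genes that are no members were not called in any comparison with DKO. Sprr2a1, whose level together with its near copies is uncertain, stood at 23.4 and 22.3 FPKM in WT, 7.26, 9.76 and 6.57 FPKM in KO, 2.85 and 10.9 FPKM in KH, and 24.3 and 12.3 FPKM in DKO. The WT and DKO libraries overlapped, and the difference between them was -0.37 on the log2 scale with a 95% interval of -1.51 to 0.77, while the differences from KO and KH were 1.07 and 1.44. Sprr2a3, of whose windows of 100 bases 36.2% occur in other Sprr transcripts, stood at 11.5 and 12.3 FPKM in WT, 6.11, 9.96 and 5.39 FPKM in KO, 2.45 and 10.3 FPKM in KH, and 29.2 and 12.7 FPKM in DKO. Those windows came from a GENCODE transcript of 2880 bases, whereas the FPKM is of a shorter locus, chr3:92288566-92289247. Both DKO libraries of Sprr2a3 were above the other 7, the lower by a factor of 1.03. Its differences from WT, KO and KH were 0.66, 1.36 and 1.70, at adjusted p = 0.614, 0.597 and 0.592 in limma with Benjamini-Hochberg adjustment. Sprr2k, which stands between Sprr2i and Sprr1b and holds the AP-1 and octamer letters, was at 0.480 and 0.122 FPKM in WT and at 0.250 and 0.338 FPKM in DKO. Its difference was 0.01, with an interval of -0.34 to 0.35. Sprr4, at the far end beyond Sprr1a, was at 8.81 and 3.28 FPKM in WT and at 5.31 and 1.13 FPKM in DKO. Members with large differences were thus interrupted in the row by Sprr2j-ps, Sprr2k and Sprr3, with differences of 0.24, 0.01 and 0.11.

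**Figure D4:**
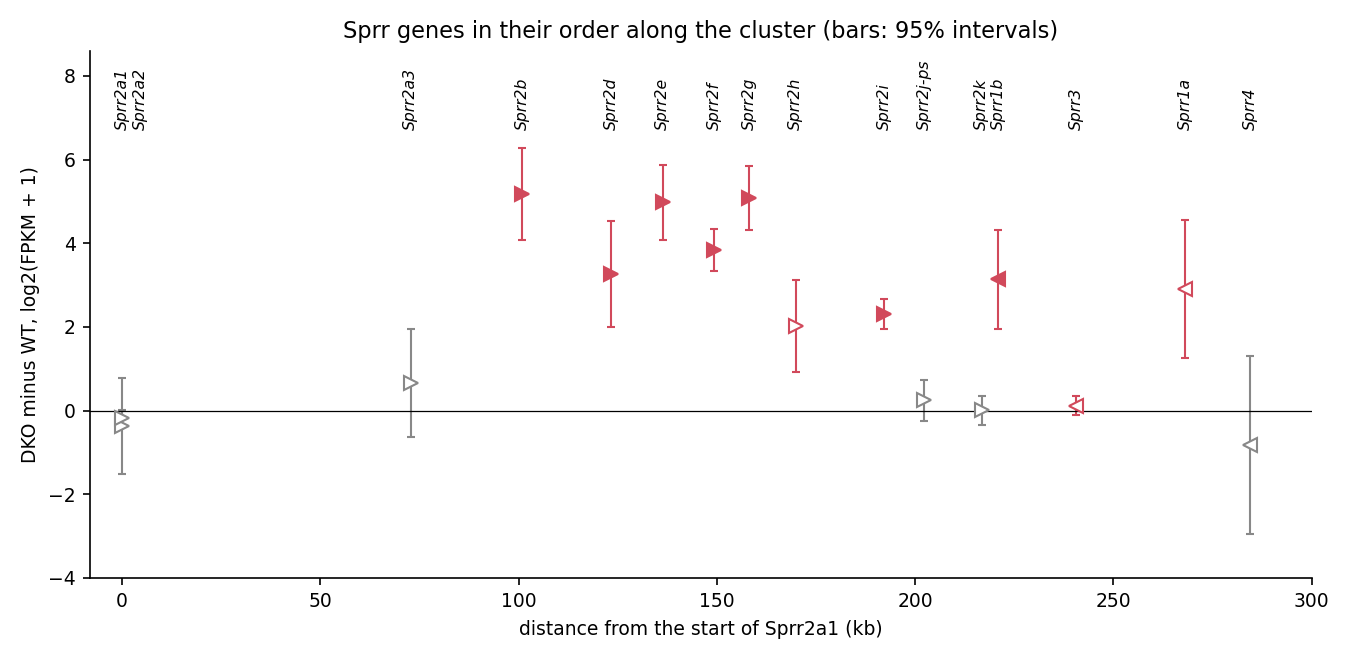
Difference between DKO and WT on the log2(FPKM + 1) scale of 16 Sprr genes (members in red, others in grey), plotted by distance in kb from the start of Sprr2a1, with 95% intervals from limma. Arrowheads point in the direction of transcription and are filled where the gene was called. Called members lie between 101 and 221 kb, with Sprr2j-ps and Sprr2k near 0 on the vertical axis among them and Sprr3, also near 0, beyond them at 241 kb.

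The order of the levels was largely kept. In WT the means ran from Sprr2d (93.0 FPKM) over Sprr1b (73.3), Sprr2h (59.5) and Sprr1a (25.2) to Sprr2e (2.52), Sprr2b (2.36) and Sprr2g (1.39), and then to Sprr3, Sprr2f and Sprr2i at 0.119, 0.116 and 0.0783 FPKM. The first 3 overlapped one another between libraries, as did Sprr2e, Sprr2b and Sprr2g, and Sprr3 overlapped both Sprr2f and Sprr2i. Sprr1a stood apart from its neighbors on either side. In DKO the order was Sprr2d (823 FPKM), Sprr1b (678), Sprr2h (242), Sprr1a (193), Sprr2b (112), Sprr2e (105), Sprr2g (80.3), Sprr2f (15.4), Sprr2i (4.41) and Sprr3 (0.207). There Sprr2d and Sprr1b overlapped, as did Sprr2b, Sprr2e and Sprr2g, and the other neighbors were separate. Sprr3 fell from the eighth place to the last.

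The shares of the summed level shifted toward 5 of the 6 members that were low in WT. Sprr2b, Sprr2e, Sprr2f, Sprr2g and Sprr2i, grouped after their values were seen, made up 1.75% and 2.97% of the sum in WT, 1.89% to 2.88% in KO, 5.17% and 2.98% in KH, but 13.3% and 14.7% in DKO. Both DKO libraries lay above the other 7. The share of Sprr3, the other low member, was 0.0163% to 0.0551% outside DKO and 0.0117% and 0.00737% in DKO. Sprr2h went the other way, with 26.1% and 21.3% in WT, 19.6% to 22.8% in KO, 20.3% and 29.5% in KH, but 13.8% and 8.47% in DKO. The share of Sprr2d stayed in one range, 20.3% to 41.2% outside DKO and 40.3% and 33.7% in it. Sprr1a and Sprr1b together made up 34.5% to 56.6% outside DKO and 32.6% and 43.2% in DKO.

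**Figure D5:**
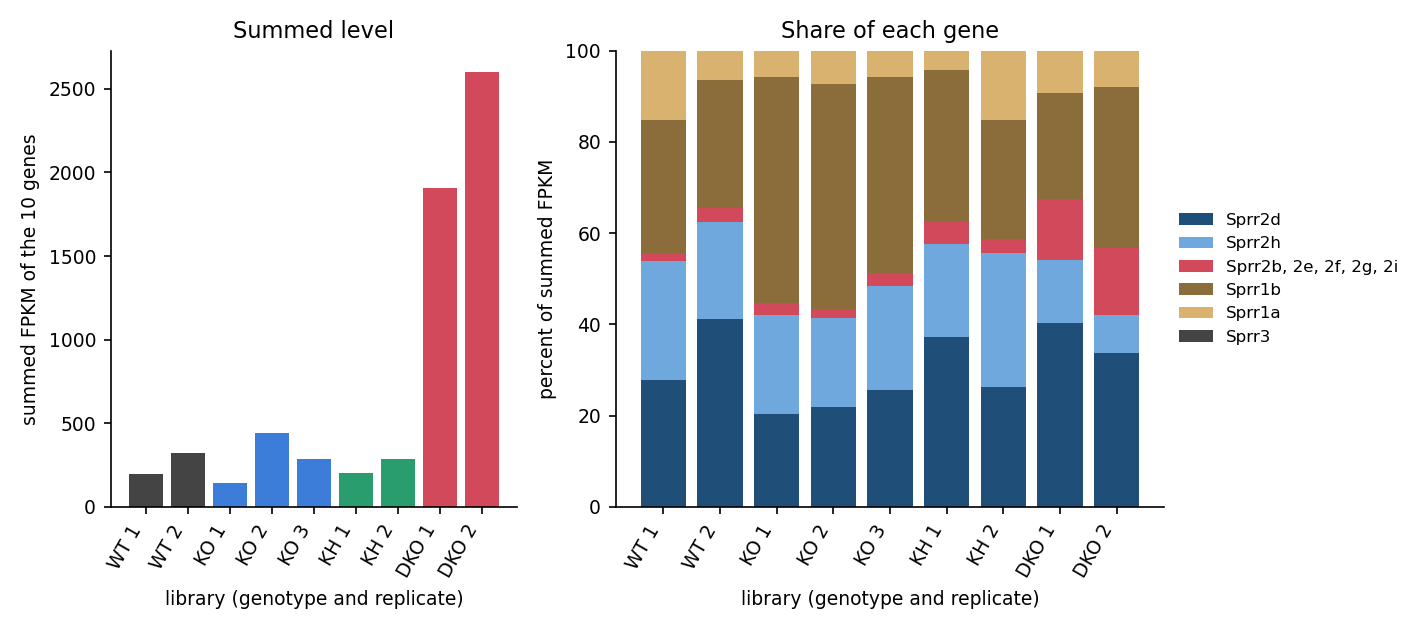
Left, summed FPKM of the 10 Sprr genes in each of the 9 libraries, named by genotype and replicate. Right, the percent of that sum from each gene, with Sprr2b, Sprr2e, Sprr2f, Sprr2g and Sprr2i drawn together. The sum is 145 to 442 FPKM outside DKO and 1910 and 2598 FPKM in DKO, and the joint share of the 5 genes is at most 5.17% outside DKO and 13.3% and 14.7% in DKO. Sprr3, below 0.1% of the sum, is too small to be seen.

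Within the 7 libraries of WT, KO and KH the members also varied together to some extent. Pearson's r of a member with the mean of the others, on the log2(FPKM + 1) scale over these 7 libraries, was 0.93 for Sprr3, 0.90 for Sprr2h, 0.84 for Sprr2d, 0.79 for Sprr2g, 0.74 for Sprr2e, 0.53 for Sprr1b, 0.51 for Sprr2i, 0.50 for Sprr2b and 0.41 for Sprr1a. For Sprr2f it was -0.14. In these libraries Sprr2i was read from at most 2 fragments, Sprr2f from at most 4 and Sprr3 from at most 10. Over all 9 libraries, where the DKO libraries dominate, it was 0.73 for Sprr3 and 0.90 to 0.99 for the other 9 genes. Libraries share their depth and scaling across genes, and these values are descriptions.

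The non-Sprr genes whose pattern over the 9 libraries was most like the mean of the members were Spink7 (Pearson's r of 0.990), Gm9782 (0.989), Krt16 (0.986), Lce3f (0.984) and Krt84 (0.983), of 12148 genes compared. Genes were compared where they averaged at least 1 FPKM over the libraries. Spink7, Gm9782 and Krt84 stayed below 1 FPKM in all 7 libraries outside DKO and passed through DKO alone, as did the members Sprr2f and Sprr2i, so the filter itself favors genes with this pattern. Krt16, a keratin of stressed and wounded epidermis, stood at 38.3 to 57.3 FPKM outside DKO and at 353 and 697 FPKM in DKO. Lce3f, a late cornified envelope gene of the same complex, stood at 1.19 to 3.52 FPKM outside DKO and at 118 and 103 FPKM in DKO. Over the 7 libraries without DKO the genes most like the members were others, namely Grtp1 (r of 0.987), Pdcd2l (0.935), Tpm4 (0.933), Pdss2 (0.931) and Fgfr1op2 (0.930), and none of these was called between DKO and WT.

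Among 17 genes for other envelope proteins and the enzymes that join them, 3 were called higher between DKO and WT and none lower, with a median difference of -0.52 on the log2 scale. The 3 were Rptn (repetin), Crnn (cornulin) and Tchhl1, members of the S100-fused group. The other 4 listed members of that group, Flg, Flg2, Hrnr and Tchh, differed by -0.09, -1.76, -1.66 and -1.48 on the log2 scale, none of them called. Tchhl1 averaged 0.0934, 0.0563 and 0.0604 FPKM in WT, KO and KH and 4.89 FPKM in DKO, so it passed the filter on low values through DKO alone, and without it the count is 2 of 16. Rptn rose from 13.4 and 14.8 FPKM in WT to 321 and 288 FPKM in DKO, a difference of 4.34 ± 0.40 (SE) on the log2 scale at adjusted p = 0.00175 in limma with Benjamini-Hochberg adjustment. The envelope precursors Lor and Ivl were not called. Lor (loricrin) was at 5511 and 4398 FPKM in WT and at 5665 and 2645 FPKM in DKO, and Ivl (involucrin) was at 931 and 890.3 FPKM in WT and at 1083 and 677 FPKM in DKO. The WT values lay within the DKO pair for both genes. The transglutaminases Tgm1, Tgm3 and Tgm5 differed by -0.19, -0.52 and -1.13 on the log2 scale, none of them called. The count fell to 2 without KO replicate 2. Among the alternatives that kept all libraries it ran from 0, without the filter on low values, to 4.

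Of 24 genes for transcription factors known at Sprr promoters or in late keratinocyte differentiation, Fosl1, an AP-1 subunit, was the 1 called between DKO and WT, with a median difference over the list of 0.18. Fosl1 stood at 0.376 and 0.566 FPKM in WT, 0.145 to 0.410 FPKM in KO, 0.0886 and 0.570 FPKM in KH, and 2.60 and 2.99 FPKM in DKO. Both DKO libraries were above the other 7, and the difference from WT was 1.37 ± 0.19 (SE) at adjusted p = 0.0169 in limma with Benjamini-Hochberg adjustment. The count was 0 without either WT library or either DKO library, with a pseudocount of 0.1 and without the filter on low values, and 2 with only the WT and DKO libraries fitted, with rescaling to a common sum and with arrayWeights, limma's weighting of libraries. The abundant subunits Fos, Jun, Junb and Jund differed by 0.43, 0.24, 0.42 and 0.31 on the log2 scale and were not called. Fosl2, also abundant, went the other way, from an average of 54.7 FPKM in WT to 38.9 FPKM in DKO, and was not called. Pou2f3, a POU factor of the epidermis, was at 103 and 106 FPKM in WT and at 94.2 and 79.7 FPKM in DKO, a difference of -0.27 that was not called. Klf4, a barrier regulator, differed by -0.54 and Grhl1 by -1.54, with adjusted p of 0.467 and 0.136 in limma (Benjamini-Hochberg).

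Of 9 further genes of the complex around the Sprr row, 8 were tested and 3 were called higher between DKO and WT. S100a8 and S100a9, which together form calprotectin, stood at 1.295 and 0.178 FPKM and at 4.21 and 2.24 FPKM in WT, and at 15.3 and 15.2 FPKM and at 40.5 and 36.9 FPKM in DKO. Prr9, another small proline-rich gene of the complex, stood at 0.507 and 0.331 FPKM in WT and at 8.68 and 5.17 FPKM in DKO. The count was 1 without DKO replicate 1, 2 without DKO replicate 2 or WT replicate 2, and 0 without the filter on low values. Lor and Ivl, given above, belong to this list too, and Smcp, Pglyrp3 and Pglyrp4 were not called. The list's median difference was 0.35.

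Markers of other cells were read beside the rise of the Sprr genes. The 5 markers of other stratified epithelia summed to 28.3 and 18.9 FPKM in WT, 29.9 to 72.9 FPKM in KO, 46.3 and 117 FPKM in KH, and 1042 and 1050 FPKM in DKO. Nearly all of this was Krt12, a keratin known from the cornea, at 994 and 1040 FPKM in DKO, which was the 1 gene called of 4 tested. Krt13 stood at 2.77 to 3.14 FPKM in WT and at 47.1 and 9.46 FPKM in DKO. Krt4, another keratin of such linings, averaged 0.317 FPKM in DKO and passed the filter through DKO alone. Sox2, the remaining marker tested, went the other way, from an average of 0.435 FPKM in WT to 0.211 FPKM in DKO. Summed spinous markers were lower in both DKO libraries (38253 and 26220 FPKM) than in WT (47179 and 61923). Their range, however, was 22085 to 67720 FPKM in KO and 28367 to 40160 in KH. None of the 5 was called, and 2 had an unadjusted limma p under 0.05 against WT, as had 2324 of all 16897 genes tested. Basal markers summed to 5278 and 5349 FPKM in WT, 5352 to 8537 in KO, 4137 to 7576 in KH and 6419 to 7406 in DKO, with none of 7 called. The 5 periderm and simple epithelium markers summed to 718 to 824 FPKM in WT, 689 to 798 in KO, 698 to 719.9 in KH and 667 to 717 in DKO. None was called, and Krt18, Krt19 and Krt23 differed from WT by 0.64, -0.44 and -1.76 on the log2 scale, each at an unadjusted limma p under 0.05. Granular and cornified markers summed to 11661 and 6035 FPKM in DKO, a range that overlapped 8998 to 11226 in WT, 5250 to 11647 in KO and 4221 to 12275 in KH. Of the 4 melanocyte markers none was called, and the unadjusted limma p was under 0.05 for 4 against WT, 2 against KO and 0 against KH. Of all genes tested, 2324, 1149 and 964 were under 0.05 in these comparisons. The melanocyte markers summed to 39.99 to 44.0 FPKM in WT, 63.1 to 76.4 in KO, 53.2 to 141 in KH and 89.8 to 196 in DKO. Immune markers summed to 2.36 to 6.05 FPKM in WT, 3.62 to 11.9 in KO, 4.89 to 12.05 in KH and 8.04 to 18.54 in DKO. Red cell markers summed to 78.7 to 531 FPKM in WT, 88.8 to 491 in KO, 13.3 to 149 in KH and 366 to 1289 in DKO. Of the 5 hair follicle markers Krt75 was called against WT and KO but not against KH, at 0.449 FPKM on average in DKO and below 0.1 FPKM on average in each other genotype, so that it was tested only because of its level in DKO. The part of these cells in the Sprr result was not tested. Xist marked WT replicate 2 and the 3 KO libraries, at 76.2 to 180 FPKM, and was at most 0.178 FPKM in the others. In DKO against KO and in KH against KO sex and genotype therefore cannot be told apart, whereas the KH and DKO libraries were alike in Xist. The part of embryo sex in the Sprr result was not tested.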

How the data were processed

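RNA of epidermis from individual E18.5 embryos was sequenced as paired reads from a stranded mRNA kit. The authors mapped reads with TopHat 1.4.1 to mm10 and estimated FPKM with Cuffdiff 2.2.0, and the deposited table holds FPKM for 38203 genes in 9 libraries and the mean of each genotype. How shared reads were split between paralogs is not given in the sources used here. From these values, genes averaging above 0.1 FPKM in at least 1 genotype (16897) were fitted on log2(FPKM + 1) with limma 3.58.1 (R 4.3.3), with all 9 libraries, 4 genotype means, an eBayes trend and 5 residual degrees of freedom. The Benjamini-Hochberg method was applied over all genes in each comparison, and a call needed an adjusted p below 0.05 and genotype averages that differed by more than 2-fold in FPKM. On this scale differences of low genes are understated. The fit was tested on simulated data.

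The worth of 1 fragment in each library relative to DKO replicate 1 was the most common ratio among 1773 genes below 0.1 FPKM in every library, and the fragments of Sprr2f, Sprr2i and Sprr3 up to 20 per library then came within 0.05 of whole numbers. Ratios of such fragments carry exact 95% intervals (Clopper-Pearson), and fold bounds take 3 fragments as the floor. Likeness was Pearson's r with the mean log2 value of the 9 members averaging at least 1 FPKM, among non-Sprr genes at or above that level, and the 5 highest are named. From the gene lists, called genes and then others of high level were named, and some others after their values were seen. The members, lists and alternatives were chosen with earlier results of these data known. Tables and plots used Python 3.11.15, pandas 2.3.3, numpy 2.4.6 and matplotlib 3.10.9.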

Additional observations from a re-analysis of the deposited data

How the results depend on the processing

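Besides the settings reported, 10 alternatives kept all libraries and 9 left out 1 library each. No call changed direction. Without a filter on low values, 4 of the 10 Sprr genes were called between DKO and WT, 4 between DKO and KO and 3 between DKO and KH, with 38203 genes tested; the cause was not tested. Leaving out 1 library gave 5 to 7 called members for DKO against WT, 5 to 7 against KO and 4 to 7 against KH, and 0 in every fit of the other 3 comparisons. The spread of a lone library was taken from the other genotypes. Sprr2f and Sprr2g were called under every alternative in all 3 comparisons with DKO. Sprr1a was called against WT with only those libraries fitted and with arrayWeights, and Sprr2h with these and with rescaling to a common sum, which moved the median of all genes between DKO and KH by -0.12. Between DKO and WT the called members were then 9, 9 and 8, while 2.44%, 3.29% and 1.04% of all genes were called in either direction, against 0.728% in the fit reported. Libraries with the same replicate number did not deviate together (r from -0.57 to 0.47, above 0.1 in 4 of 12 pairs), and a fit with the replicate number as a block called 6 members in each comparison with DKO and 0 in the others. These numbers are those of the sample titles. By the numbers in the column names of the deposited table, which differ for 4 libraries, r was -0.23 to 0.54 and above 0.1 in 4 of 6 pairs, and no block was fitted on them. Depth limits Sprr2f, Sprr2i and Sprr3 outside DKO, where single fragments decide their level.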
